A study of Mus musculus with 4 samples.

Results

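Chemokines and their receptors were examined in testes of male mice that lacked Lhcgr, the receptor for luteinizing hormone, and in testes of wild-type controls. Members were chosen by symbol alone, as every gene named Ccl, Cxcl, Ccr or Cxcr followed by a digit that had a probe set of its own. This gave 48 of the 19938 genes compared, namely 19 CC ligands, 13 CXC ligands, 10 CC receptors and 6 CXC receptors. All animals of both groups had received busulfan, an alkylating drug that removes germ cells, at 44 mg/kg, and were killed 4 weeks later. Total RNA of whole testis from 2 samples labelled Lhcgr KO and 2 labelled control WT was hybridised to 1-colour Affymetrix whole-transcript arrays. The sources used here give no strain, age or construction of the knockout allele. Whether the replicates were separate animals is not said in the labels, and the spread behind each p-value may therefore be technical. Lhcgr itself is not analysed here, which leaves the genotype labels without a check on the targeted gene.

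Chemokines are small secreted proteins that guide migrating cells along a gradient and signal through G protein-coupled receptors. CC ligands carry adjacent cysteines near the amino terminus, while CXC ligands have a single residue between them, and each class has its own receptors, often with several partners. In the testis, resident macrophages lie beside the Leydig cells in the interstitium, and Cxcl12 from somatic cells acts on Cxcr4 of spermatogonial stem cells.

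In the knockout testes the B cell attractant Cxcl13 was 2.99-fold lower and the Cxcl12 receptor Cxcr4 was 2.03-fold lower than in wild type. No member rose, and the remaining 46 did not pass the test (limma, Benjamini-Hochberg adjusted p under 0.05 over all genes). Ccl8, a monocyte attractant made by tissue macrophages, and Cxcl10, an interferon-induced attractant of activated T cells, measured lower on both knockout arrays than on both wild-type arrays, with adjusted p-values of 0.0769 and 0.0622. Cxcl12, Ccl2 and the receptors Ccr2, Cxcr3 and Cxcr5 had changes smaller than 0.25 log2 units.

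The 2 members called are 4.17% of the 48, near the 3.1% of all genes that passed the same test. By direction, 2.14% of all genes were called lower and 0.963% higher. Before adjustment, 6 members had p under 0.05 with a lower and 3 with a higher knockout value, and over all genes these numbers were 1949 and 2567. Over the members the log2 fold change, knockout minus wild type, ran from -1.58 to 0.37 with a median of 0.11, beside a median of 0.07 over all genes. The member median was 0.03 without knockout replicate 2 and 0.16 without wild-type replicate 1. On 11 of 48 members both knockout arrays lay below both wild-type arrays, beside 22.4% of all genes. On 19 of 48 both knockout arrays lay above, beside 36.8% of all genes. As shares of the members these are 22.9% and 39.6%, near the background in either direction.

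**Figure D1:**
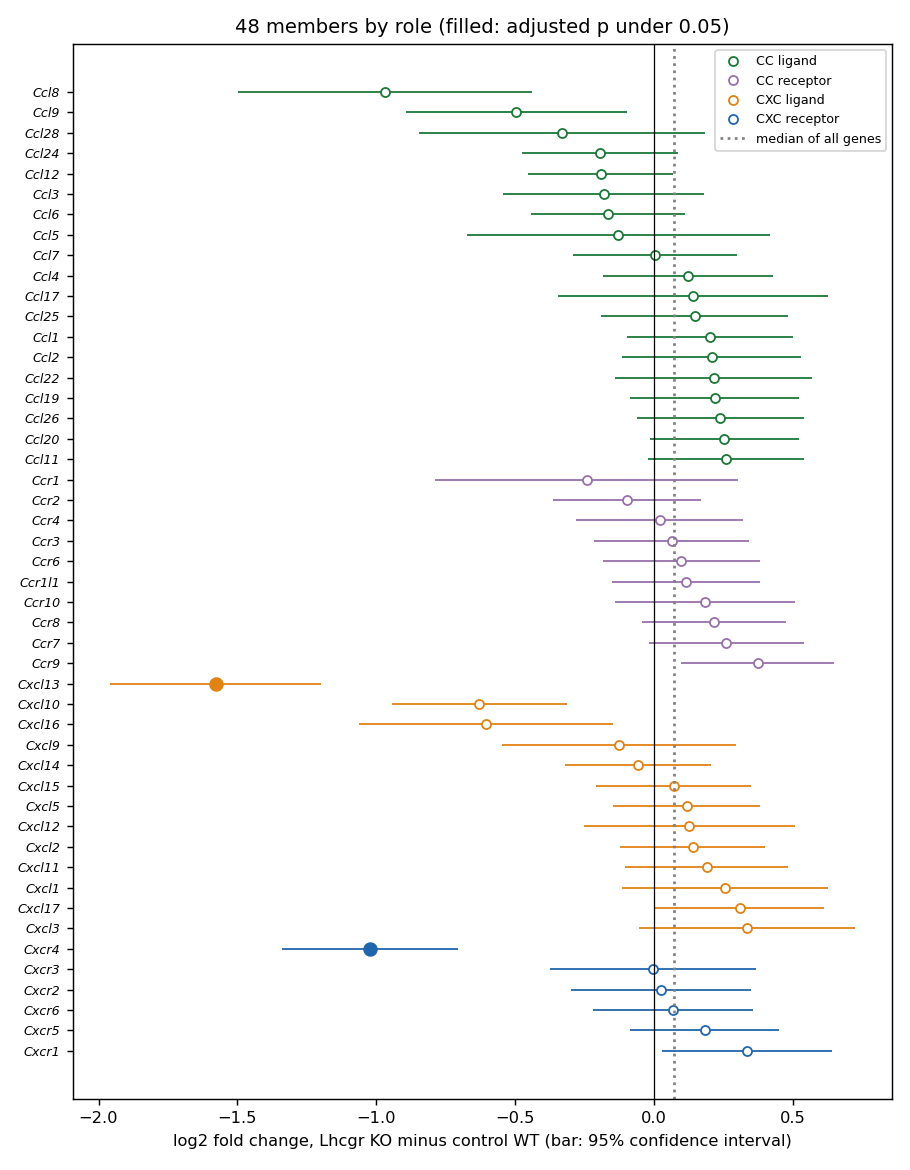
Log2 fold change (x axis, log2 units, Lhcgr KO minus control WT) of the 48 members grouped by role, with 95% confidence intervals from the limma fit on 2 arrays per group. Filled points, Cxcl13 at -1.58 and Cxcr4 at -1.02, passed the test. The dotted line marks the median of all genes, 0.07.

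Many members were weak on these arrays. No detection calls were used, so olfactory and vomeronasal receptor genes, most of which are not expected in testis, served as a yardstick. The 95th percentile of their 1205 probe sets, called the reference level here, was 7.39 and 7.46 log2 intensity units on the knockout arrays and 7.22 and 7.07 on the wild-type arrays. Of the 48 members, 22 exceeded it on both arrays of at least 1 group and 26 did not. A gene can pass this mark through its higher group alone, so levels were also split by the mean over the 4 arrays. By that split 17 members lay above the mean reference level and had a median log2 fold change of 0.12, and 31 did not and had one of 0.10. On 14 of the 31 both knockout arrays lay above both wild-type arrays, a share of 45.2% beside 50.9% of the 7651 genes that are as weak. Those genes had a median of 0.17, and the 1190 olfactory and vomeronasal receptor genes had one of 0.23, so weak genes in general were offset upward on the knockout arrays. With the medians of those receptor probe sets made equal on all arrays, the member median was -0.12, and Ccl8, Ccl9, Cxcl10 and Cxcl16 were called lower besides Cxcl13 and Cxcr4, out of 134 genes higher and 1810 lower in all. The member median was also negative, -0.03, after quantile normalization.

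**Figure D2:**
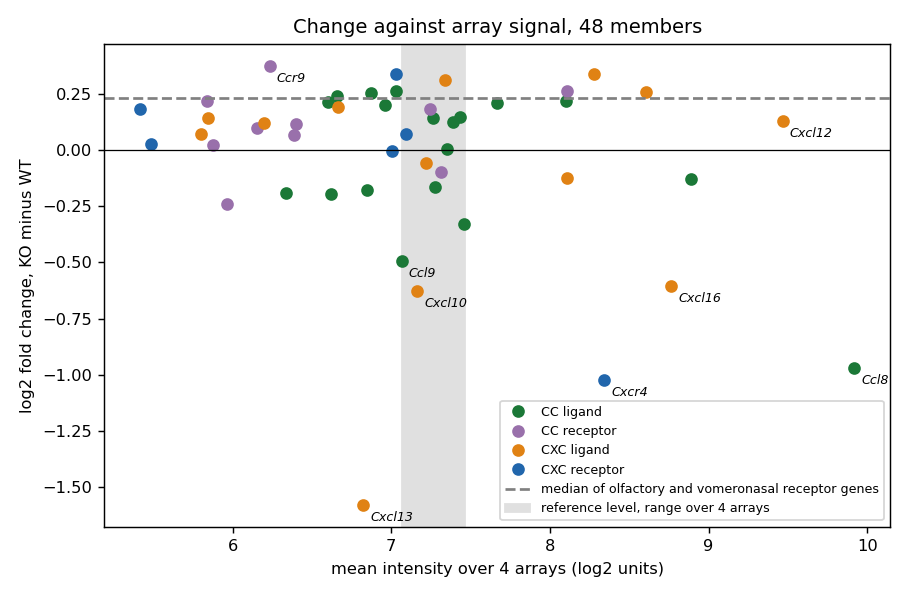
Log2 fold change (y axis, log2 units, KO minus WT) against the mean intensity over the 4 arrays (x axis, log2 units) for the 48 members, coloured by role. The grey band is the reference level and the dashed line the median change of olfactory and vomeronasal receptor genes, 0.23. Cxcl13, Cxcr4, Ccl8, Cxcl10, Cxcl16 and Ccl9 lie apart below the other members.

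The labelled tissue was checked on marker genes. All 12 Sertoli cell markers exceeded the reference level, with a summed intensity of 31212 and 31429 in the knockout and 32025 and 30363 in wild type, and Trf fell while Amh rose among them. Of 12 germ cell markers 6 did not exceed it and none passed the test (3 had an unadjusted limma p under 0.05). Their sum was 2373 and 2121 against 2810 and 1786. Among them only Zbtb16 had both knockout arrays below both wild-type arrays (log2 fold change -1.303, limma adjusted p = 0.183). Zbtb16 measured 8.38 and 6.73 log2 units on the knockout arrays, against a wild-type mean of 8.86. For 2 markers, Dazl and Acrv1, both knockout arrays lay above, with log2 fold changes of 0.36 and 0.29. Endothelial and peritubular muscle markers had no gene past the test among 12 and 8 (2 and 6 had an unadjusted limma p under 0.05). Over all genes, 4516 of 19938 had an unadjusted limma p under 0.05, which is the background for such counts in every list here.

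Cxcl13 directs B cells and some T cells into lymphoid follicles and is also made by certain macrophages. Its intensity (probe set 10523359) was 6.17 and 5.89 log2 units in knockout replicates 1 and 2, and 7.45 and 7.77 in wild-type replicates 1 and 2. Both knockout arrays were low, the groups were more than 1 log2 unit apart, and they did not overlap. The means were 6.03 ± 0.20 (SD, n = 2) and 7.61 ± 0.23, which differ by -1.58 ± 0.16 log2 units (SE, adjusted p = 0.00709). The fold of 2.99 had a 95% confidence interval of 2.30 to 3.89. The knockout values lay below the median of the olfactory and vomeronasal receptor probe sets on the same arrays, 6.26 and 6.21, so the knockout signal was at the level of genes not expected in testis. The fitted fold may for that reason understate the change. Cxcr5, the receptor of Cxcl13 on B cells and follicular helper T cells, measured 5.55, 5.47, 5.36 and 5.29 log2 units on the same arrays in that order, all under the reference level. It had a log2 fold change of 0.18 (95% confidence interval -0.08 to 0.45, adjusted p = 0.346).

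Cxcr4 holds stem cells and leukocytes in niches that make Cxcl12. Its intensity (probe set 10357472) was 7.76 and 7.90 log2 units on the knockout arrays and 8.73 and 8.97 on the wild-type arrays. The 2 groups did not overlap, and all 4 values exceeded the reference level. The means were 7.83 ± 0.10 (SD, n = 2) and 8.85 ± 0.17, which differ by -1.02 ± 0.13 log2 units (SE, adjusted p = 0.0147). The fold of 2.03 had a 95% confidence interval of 1.63 to 2.53. Cxcl12 measured 9.73, 9.33, 9.48 and 9.33 log2 units on the 2 knockout and then the 2 wild-type arrays, and the groups overlapped. The Cxcl12 difference of 0.13 log2 units had a 95% confidence interval of -0.25 to 0.51 (adjusted p = 0.630). Ackr3, an atypical receptor that takes up Cxcl12 without G protein signalling, is outside the naming rule and differed by 0.14 ± 0.14 log2 units (adjusted p = 0.528).

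Without knockout replicate 1, Cxcl13 and Cxcr4 kept log2 fold changes of -1.72 and -0.95 but had adjusted p-values of 0.0847 and 0.160. Without knockout replicate 2 the values were -1.44 (adjusted p = 0.120) and -1.09 (adjusted p = 0.142). With either array left out, calls over all genes dropped from 618 to 18 and 23, respectively.

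**Figure D3:**
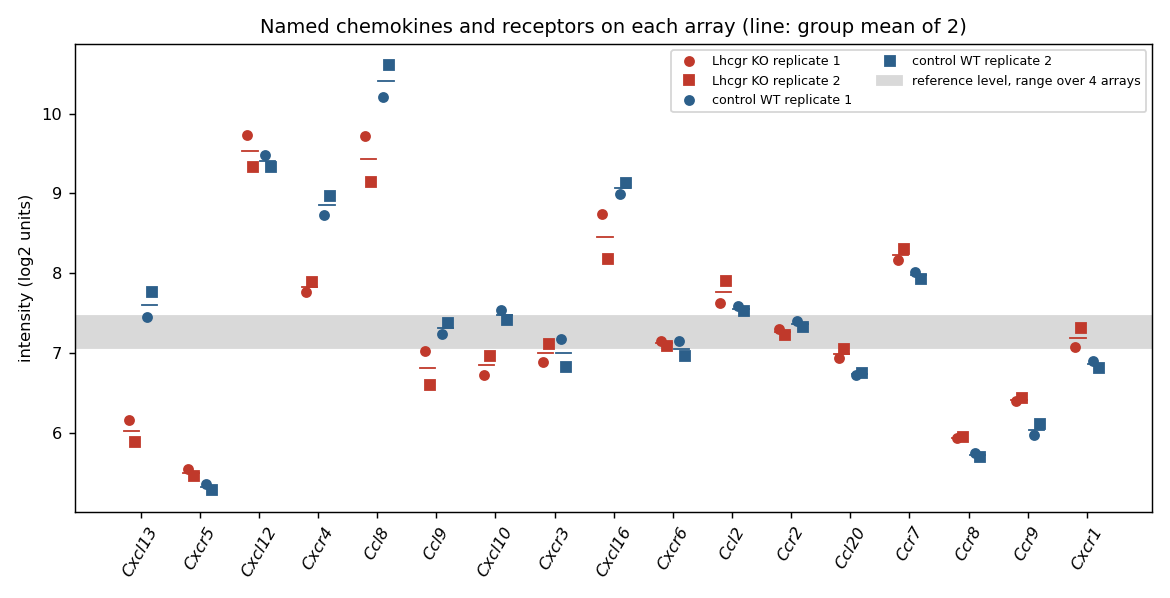
Intensity (y axis, log2 units) of 17 chemokines and receptors on each of the 4 arrays, with ligands beside a receptor where possible. Circles are replicate 1 and squares replicate 2, red is Lhcgr KO and blue control WT, short lines are means of 2 arrays, and the grey band is the reference level. The groups lie apart for Cxcl13 and Cxcr4 and overlap for Cxcl12.

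The 250 bases before the start of Cxcl13, Cxcr4 and Cxcl10 are shown because these genes carried the lowest p-values among the CXC members, and shorter stretches of Cxcl1, Cxcl2 and Cxcl3 because they hold the kappaB letters discussed next. All are RefSeq sequences on GRCm38.p6, written 5′ to 3′ on the strand of the gene. Capitals mark matches, on either strand, to 4 motifs. These are GGGAATTTCC with any base at the fourth and the fifth position (kappaB type, bound by NF-kappaB), GAAAGTGAAA with any base at the fifth and the sixth position (interferon response type), TTCNNNGAA (STAT type) and TATAAA (core promoter box).
Cxcl13, chr5:95956689-95956938, plus strand: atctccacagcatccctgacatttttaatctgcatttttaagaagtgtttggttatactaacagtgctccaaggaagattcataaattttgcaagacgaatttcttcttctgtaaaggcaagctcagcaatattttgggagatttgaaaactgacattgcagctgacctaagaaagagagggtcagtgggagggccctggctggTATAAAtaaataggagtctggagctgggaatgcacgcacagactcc
Cxcr4, chr1:128592300-128592549, minus strand: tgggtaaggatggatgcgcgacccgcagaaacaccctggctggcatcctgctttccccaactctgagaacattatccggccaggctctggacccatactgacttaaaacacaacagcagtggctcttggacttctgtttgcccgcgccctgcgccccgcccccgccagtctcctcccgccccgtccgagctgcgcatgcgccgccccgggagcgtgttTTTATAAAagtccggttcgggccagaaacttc
Cxcl10, chr5:92348890-92349139, minus strand: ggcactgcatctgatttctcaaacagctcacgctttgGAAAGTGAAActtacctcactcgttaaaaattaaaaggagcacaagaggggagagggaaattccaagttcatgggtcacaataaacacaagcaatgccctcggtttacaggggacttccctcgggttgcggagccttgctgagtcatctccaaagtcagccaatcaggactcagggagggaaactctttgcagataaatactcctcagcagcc
Cxcl1, chr5:90891145-90891224, plus strand: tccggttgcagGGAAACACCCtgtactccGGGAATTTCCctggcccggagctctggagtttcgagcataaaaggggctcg
Cxcl2, chr5:90903799-90903878, plus strand: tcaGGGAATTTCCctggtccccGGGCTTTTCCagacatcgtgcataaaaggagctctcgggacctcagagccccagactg
Cxcl3, chr5:90786001-90786080, plus strand: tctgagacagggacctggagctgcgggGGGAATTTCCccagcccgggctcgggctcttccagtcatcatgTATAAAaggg

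RefSeq windows of this kind were found for 34 of the 48 members, 36 windows in all. The kappaB letters occurred in 6 of these 36 windows and in 1.41% of all 32851 windows of the same length. The genes that held them were Cxcl1, Cxcl2, Cxcl3, Ccl20, Ccl9 and Ccr3, and none of them passed the test. The interferon response letters occurred in 3 member windows, of Cxcl10, Ccl19 and Cxcl14, and in 2.98% of all windows. The STAT letters occurred in 4 member windows and in 7.02% of all windows. The core promoter box letters, added after the windows were seen, occurred in 10 member windows, Cxcl13 and Cxcr4 among them, and in 12.37% of all windows. No matches of different motifs overlapped in the member windows, and a match of letters is a description of the sequence only.

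Among the ligands of monocytes and macrophages, Ccl8, Ccl9, Ccl2, Ccl7 and Ccl12 did not pass the test. Ccl8 (probe set 10379535) measured 9.72 and 9.15 log2 units on the knockout arrays and 10.20 and 10.60 on the wild-type arrays. The groups did not overlap, but the replicates of each differed by 0.4 or more. The Ccl8 log2 fold change was -0.97 ± 0.22 (SE, adjusted p = 0.0769), and the gene passed without wild-type replicate 1 (-1.17, adjusted p = 0.0219). Leaving out each array in turn gave values from -0.68 to -1.26. Ccl9, which acts on Ccr1 of myeloid cells, measured 7.03 and 6.60 in the knockout and 7.24 and 7.38 in wild type, again without overlap. The difference was -0.49 ± 0.17 log2 units (SE, adjusted p = 0.162), and was -0.71 without knockout replicate 1 and -0.28 without replicate 2. Ccr1 measured 5.98, 5.70, 5.74 and 6.42, with wild-type replicate 2 highest and the groups overlapping. The Ccr1 difference of -0.24 log2 units (adjusted p = 0.518) was 0.10 without that array and -0.58 without wild-type replicate 1.

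Ccl2, the main attractant of blood monocytes, measured 7.63 and 7.91 log2 units in the knockout and 7.59 and 7.53 in wild type. The Ccl2 log2 fold change was 0.21, with a 95% confidence interval of -0.11 to 0.53 (adjusted p = 0.366), and it was 0.35 without knockout replicate 1 and 0.07 without replicate 2. Ccr2, the Ccl2 receptor that marks inflammatory monocytes, measured 7.30, 7.23, 7.41 and 7.33, a difference of -0.10 log2 units (95% confidence interval -0.36 to 0.17, adjusted p = 0.596). Neither gene of this pair passed the test, and the knockout arrays lay slightly above wild type for the ligand and slightly below it for the receptor. The related ligands Ccl7 and Ccl12 had log2 fold changes of 0.00 and -0.19. In the RefSeq gene order Ccl2, Ccl7, Ccl11, Ccl12, Ccl8 and Ccl1 are direct neighbours, and over this run the changes spread from -0.97 for Ccl8 to 0.26 for Ccl11, the eosinophil attractant eotaxin. A further run of CC ligands, Ccl5, Ccl9, Ccl6, Ccl3 and Ccl4, ranged from -0.49 for Ccl9 to 0.12 for Ccl4.

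Macrophage genes were lower on the same arrays. The macrophage and Leydig marker lists were chosen with earlier results of these data known, so their counts are descriptions only. Of 18 measured macrophage and monocyte markers 6 fell, beside 2.14% of all genes, and none rose. On 16 of 18 both knockout arrays lay below both wild-type arrays, beside 22.4% of all genes. Those that fell were Folr2, Lyz2, Cd68, Csf1r, C1qb and Itgam, with log2 fold changes of -1.34 for the folate receptor Folr2, -1.55 for lysozyme Lyz2, -1.02 for the growth factor receptor Csf1r and -0.95 for the lysosomal protein Cd68. The summed intensity of the 18 was 7270 and 7783 on the knockout arrays and 11512 and 14027 on the wild-type arrays, with Cd14, Cd163 and Timd4 not above the reference level. The list median was -0.71, beside 0.11 for the chemokine members and 0.07 for all genes. Of 9 Leydig cell markers 4 fell, beside the same 2.14%, and the summed intensity of the 9 was 7562 and 6058 against 25838 and 14520, with Hsd11b1 not above the reference level. The 4 were Hsd3b6, Ptgds, Cyp11a1 and Star, with log2 fold changes of -6.81, -4.49, -1.79 and -1.41. Hsd3b1, Nr5a1 and Hsd11b1 differed by 0.20, 0.02 and 0.06, and their groups overlapped. The part of either cell type in the changes of Cxcl13, Cxcr4 and Ccl8 was not tested, nor was that of germ cells in the change of Cxcr4. Epididymal and rete testis markers had a summed intensity of 13395 on wild-type replicate 2 and 1284 on wild-type replicate 1. The part of such tissue in the macrophage, Cxcl13, Cxcr4 and Ccl8 values was not tested. Without wild-type replicate 2 the log2 fold changes of Cxcl13, Cxcr4 and Ccl8 were -1.42, -0.90 and -0.77. In whole testis RNA, fewer cells of a type and less RNA per cell cannot be told apart.

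Cxcl9, Cxcl10 and Cxcl11 are interferon-induced ligands of Cxcr3, and none of them passed the test. Cxcl10 (probe set 10531415) measured 6.73 and 6.97 log2 units in the knockout and 7.54 and 7.41 in wild type. The groups did not overlap, and only the wild-type values exceeded the reference level. Its log2 fold change was -0.63 ± 0.13 (SE), with an adjusted p of 0.0622 that became 0.0348 after quantile normalization and 0.0392 with a robust variance prior. Cxcl9 measured 7.90, 8.19, 8.38 and 7.96, and the groups overlapped (log2 fold change -0.12, adjusted p = 0.674). Cxcl11 had a log2 fold change of 0.19 and lay under the reference level on every array. Cxcr3, the shared receptor on activated T cells and natural killer cells, measured 6.89, 7.11, 7.18 and 6.84. The Cxcr3 log2 fold change was 0.00, with a 95% confidence interval of -0.37 to 0.37 (adjusted p = 0.991).

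Cxcl16, a membrane-bound chemokine that also takes up oxidised lipoprotein, measured 8.74 and 8.18 log2 units in the knockout and 8.99 and 9.14 in wild type. The groups did not overlap, and knockout replicate 2 was the lowest. Its log2 fold change was -0.60 ± 0.19 (SE, adjusted p = 0.149), and was -0.88 without knockout replicate 1 and -0.33 without replicate 2. Cxcr6, its receptor on T cells and natural killer cells, measured 7.16, 7.09, 7.15 and 6.96, with overlap and a log2 fold change of 0.07 (adjusted p = 0.738).

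Ligands and receptors of neutrophils did not pass the test. Cxcl1 and Cxcl3, which act on Cxcr2, had log2 fold changes of 0.26 and 0.34 (adjusted p = 0.340 and 0.265). Cxcl3 measured 8.23 and 8.66 log2 units in the knockout and 8.18 and 8.05 in wild type, above the reference level on all arrays. Cxcl2, Cxcl5 and Cxcl15 lay under the reference level on every array, with changes of 0.14, 0.12 and 0.07. Cxcr1 measured 7.08 and 7.32 in the knockout and 6.90 and 6.82 in wild type, without overlap but under the reference level (log2 fold change 0.34 ± 0.13, adjusted p = 0.198, and 0.22 without knockout replicate 2). Its neighbour Cxcr2 had one of 0.03 (adjusted p = 0.915). None of 10 neutrophil markers passed the test (2 had an unadjusted limma p under 0.05), and Camp and Elane, with the lowest p-values, differed by 0.58 and 0.30 log2 units. Of the list, 9 of 10, S100a8 and S100a9 among them, were not above the reference level. Their summed intensity was 1017 and 1057 in the knockout and 959 and 937 in wild type.

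Ccr7, which leads dendritic cells and naive T cells to lymph nodes, measured 8.17 and 8.30 log2 units in the knockout and 8.02 and 7.93 in wild type. The groups did not overlap, and the log2 fold change was 0.26 ± 0.12 (SE, adjusted p = 0.239). Its ligand Ccl19 had one of 0.22 (adjusted p = 0.326), and leaving out either wild-type array gave 0.10 and 0.33. The 5 probe sets of Ccl19 gave changes between 0.21 and 0.22, with similar values on each array. Their sequences were not compared, and they were not taken as separate evidence. Ccr9, the gut-homing receptor, measured 6.40, 6.44, 5.97 and 6.12, under the reference level and without overlap (0.37 ± 0.12, adjusted p = 0.144). This was the largest positive value of the 48 in the fit on all arrays. The Ccr9 ligand Ccl25 differed by 0.15 log2 units (adjusted p = 0.525).

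Ccl20 measured 6.94 and 7.05 log2 units in the knockout and 6.73 and 6.76 in wild type, and differed by 0.25 ± 0.11 log2 units (SE, adjusted p = 0.235). Its receptor Ccr6 had one of 0.10 (adjusted p = 0.614). Both lay under the reference level on all arrays. Ccr8, found on regulatory and type 2 helper T cells, measured 5.94, 5.95, 5.75 and 5.71 (0.22 ± 0.11, adjusted p = 0.278), and its ligand Ccl1 differed by 0.20 (adjusted p = 0.351), with neither above the reference level.

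Of 14 measured lymphocyte and natural killer cell markers none passed the test (1 had an unadjusted limma p under 0.05), and Il2rb and Ncr1, with the lowest p-values, differed by 0.29 and 0.32 log2 units. Of the list, 11 were not above the reference level, and the summed intensity was 1697 and 1847 against 1803 and 1503. Among 12 dendritic and mast cell markers Flt3 and Zbtb46 rose (log2 fold changes 0.75 and 0.63, beside 0.963% of all genes called higher), both genes of dendritic cells, and 7 were not above the reference level. Their summed intensity was 2456 and 2455 in the knockout and 2218 and 1607 in wild type. This sum includes Kit, which is also on the germ cell list. Kit measured 9.51 and 9.11 log2 units in the knockout and 9.43 and 8.10 in wild type. On 6 of the 12 both knockout arrays lay above both wild-type arrays, beside 36.8% of all genes, and Itgax differed by -0.06. The part of the cells on these lists in the values of Ccr7 and Ccl19 was not tested.

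Ccl28, a chemokine of mucosal epithelium, was high on wild-type replicate 2 alone. It measured 7.96 log2 units there and 7.28 in wild-type replicate 1, against 7.32 and 7.27 in the knockout. The difference of -0.33 log2 units (adjusted p = 0.369) was 0.01 without that array and -0.67 (adjusted p = 0.0454) without wild-type replicate 1. On the same array 12 epididymal and rete testis markers had a summed intensity of 13395, against 1248 to 1284 on the other 3 arrays. Not all were high there. Spint4 and Adam7 measured 12.56 and 11.04 log2 units, but Rnase10 and Spag11a had their lowest values there (5.58 and 6.41). Lcn8 measured 6.18, within the range of the other arrays. Of the 12, 9 did not exceed the reference level on both arrays of any group. Epcam, which joins epithelial cells, was the only gene of the 12 called (log2 fold change -2.06). Epcam was raised on both wild-type arrays, 7.73 and 9.12 against 6.37 and 6.37 in the knockout. The part of such tissue in the value of Ccl28 was not tested. The Ccl28 receptor Ccr10 differed by 0.18 log2 units (adjusted p = 0.422).

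The remaining members lay between -0.19 and 0.31. Ccl17 and Ccl22, attractants of type 2 helper T cells, had log2 fold changes of 0.14 and 0.21, and their receptor Ccr4 one of 0.02. The eosinophil attractants Ccl24 and Ccl26 had changes of -0.19 and 0.24, and their receptor Ccr3 one of 0.06. The inflammatory ligands Ccl3, Ccl4 and Ccl5 had changes of -0.18, 0.12 and -0.13. Ccl5 measured 9.29 in wild-type replicate 1 and 8.62 in replicate 2, a wider gap than that between the groups. Ccl6 had a change of -0.17, Cxcl14 one of -0.06, Ccr1l1 one of 0.12 and the mucosal chemokine Cxcl17 one of 0.31 (adjusted p = 0.216).

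The chemokine system beyond the naming rule gave no calls. None of 14 measured genes passed the test (5 had an unadjusted limma p under 0.05), with a median log2 fold change of 0.06. Pf4, platelet factor 4, measured 8.08 and 8.48 log2 units in the knockout and 9.04 and 9.86 in wild type, and differed by -1.17 ± 0.27 log2 units (SE, adjusted p = 0.0808). The chemerin receptor Cmklr1 had one of -0.46 (adjusted p = 0.101). The fractalkine Cx3cl1 and its receptor Cx3cr1 had changes of -0.47 and -0.30 (adjusted p = 0.160 and 0.216).

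Genes that induce chemokines held 4 that fell among 29 measured, beside 2.14% of all genes, and none that rose, beside 0.963%. This list too was chosen with earlier results of these data known, so the count is a description only. Il1a, an alarm cytokine, measured 5.59 and 5.83 log2 units in the knockout and 7.92 and 7.26 in wild type, and fell by 1.88 ± 0.22 log2 units (SE, adjusted p = 0.0111). The knockout values lay below the medians of the olfactory and vomeronasal receptor probe sets, 6.26 and 6.21, so this fitted value is at the level of genes not expected in testis on that side and may understate the change. Il17ra, the interleukin-17 receptor, fell by 1.10, the tumour necrosis factor receptor Tnfrsf1b by 0.87 and the NF-kappaB subunit Nfkb2 by 0.66 on the log2 scale. The list median was -0.09, and Tnf, Il1b, Il6, Ifng, Ifnb1, Il4, Il17a and Tlr4 were not above the reference level. Of 26 signal transduction genes none passed the test (median -0.08, with 7 at an unadjusted limma p under 0.05). The lowest p-values were those of the kinases Ptk2b (-0.86 ± 0.17, adjusted p = 0.0507) and Pik3cg (-0.55 ± 0.13, adjusted p = 0.0931). Of 14 adhesion and matrix partners none passed (median -0.13, with 3 at an unadjusted limma p under 0.05). Vcam1, which holds leukocytes on endothelium, measured 10.43 and 9.84 in the knockout and 11.48 and 10.88 in wild type (-1.04 ± 0.25, adjusted p = 0.0915). The integrin Itga4, a Vcam1 receptor, differed by 0.59 ± 0.15 (adjusted p = 0.100).

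**Figure D4:**
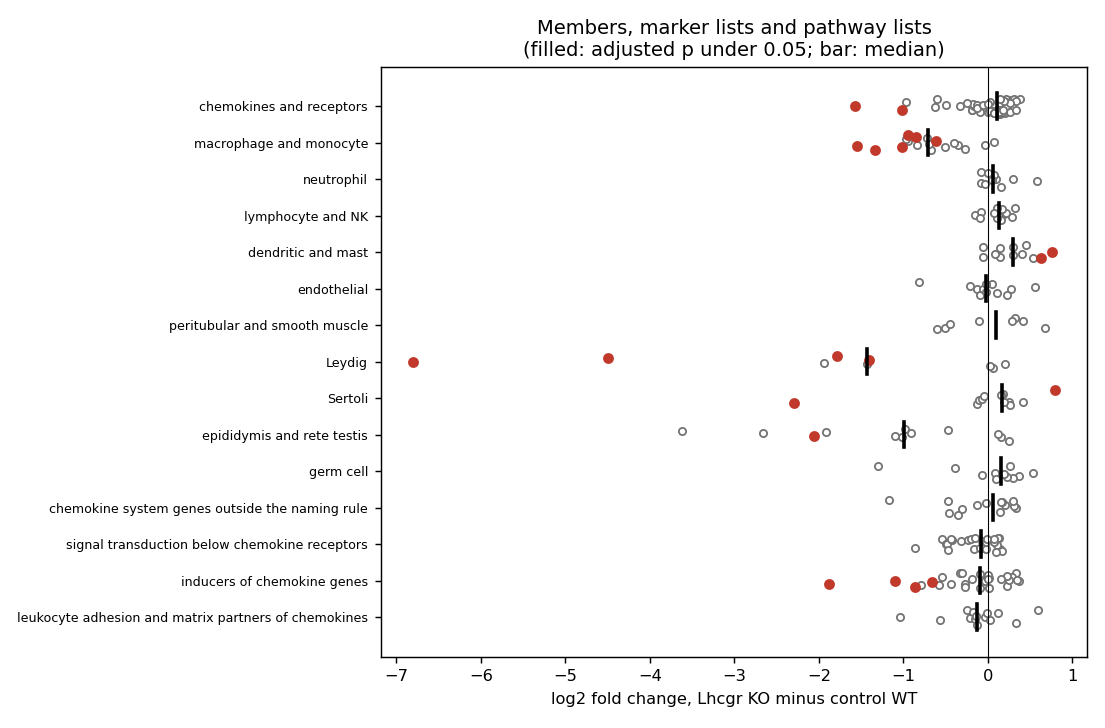
Log2 fold change (x axis, log2 units, Lhcgr KO minus control WT) of each gene in the chemokine set, 10 marker lists and 4 pathway lists (y axis), with points spread vertically for legibility. Filled red points passed the test and black bars are list medians. The macrophage list has its median at -0.71 and the chemokine set at 0.11.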

How the data were processed

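Each array has 1 deposited intensity for every probe set, on a linear scale, with a lowest value of 16.0 on each array and array medians from 198.3 to 215.1. Per the submitters' processing notes the genome build is mm9. How the authors summarized, background-corrected and normalized these intensities was not given in the sources used here. Of 28856 probe sets 21789 have 1 gene symbol, and the probe set with the highest mean stood for each of 19938 genes. The symbols Ccl21a, Ccl21b, Ccl21c, Ccl21d, Ccl27a and Ccl27b occur only on shared probe sets and were left out. Values were taken to log2 and fitted with limma 3.58.1 (R 4.3.3, lmFit and eBayes, 4.65 prior and 2 residual degrees of freedom), two-sided, adjusted over all genes with a threshold of 0.05. Levels of different probe sets were compared with the reference level or the median of olfactory and vomeronasal receptor probe sets. Linear intensities were also summed over the genes of a marker list on each array.

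Members and lists were chosen with earlier results of these data known. Those given in full are all called members, the 3 lowest p-values in each role, the preset Cxcl12, Cxcr4, Ccl2, Ccr2, Cxcl10 and Cxcr3, and partners of these. Of each marker or pathway list the rule names called genes, up to 4, or else the 2 with the lowest p, and further genes named from lists were picked after their values were seen. Alternatives were quantile normalization, median centring, 32 added before log2, the lowest 25% or 50% of genes left out, averaged probe sets, eBayes with trend or a robust prior, each array left out and the replicate number as a block. The fit was tested on simulated data.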

Additional observations from a re-analysis of the deposited data

How the results depend on the processing

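Cxcl13 and Cxcr4 kept their direction under every alternative in which they were tested. With the lowest 50% of genes left out, 10 members remained and the count called lower was 1, Cxcr4. It ranged from 0 to 4 as each array was left out, with a lone array assumed to vary like the other group. No member was called higher under any alternative; with all arrays, 9 members had an unadjusted p under 0.05. The fit with a replicate block called 2 members lower, Cxcl13 and Cxcr4 as before, and changed no other call among the members given in full. The numbers were not taken as pairs, because no label says that a number marks a shared animal, litter or day. The difference between replicates 1 and 2 had a correlation of 0.021 between the groups over all genes. This 1 value cannot show whether the numbers mark pairs. The member median of 0.11 became -0.028 after quantile normalization, where Cxcr6 and Ccr6 turned to -0.033 and -0.051.

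An alternative added after seeing the data made the medians of olfactory and vomeronasal receptor probe sets equal on all arrays. It moved the median of all genes from 0.07 to -0.16 and the share of calls that were higher from 31.1% to 6.9%. There the member median was -0.12, and 6 of 48 members were called lower (Ccl8, Ccl9, Cxcl10, Cxcl13, Cxcl16 and Cxcr4), beside 1810 of all 19938 genes. Ccr8 became -0.012, Cxcr5 -0.044, Cxcl12 -0.10, Ccl2 -0.020, Cxcr6 -0.16, Ccr6 -0.13, Ccl19 -0.0089, Ccl25 -0.080 and Ccl1 -0.026. Signs also turned as each array was left out, over ranges of -0.073 to 0.33 for Cxcl12, -0.17 to 0.17 for Cxcr3, -0.025 to 0.16 for Cxcr6, -0.58 to 0.096 for Ccr1, -0.011 to 0.31 for Ccl25 and -0.67 to 0.0085 for Ccl28. The cause was not tested. Weak signal limits the 26 members not above the reference level. By the mean over the 4 arrays it limits 31 members, Cxcl13, Cxcl10 and Ccl9 among them. The number of arrays limits all.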
